A study of Mus musculus with 2 samples.

Results

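Ccl5-positive CD8 T cells numbered 384 of the 34768 cells sequenced from mouse blood, with 126 of 17123 cells in the WT library and 258 of 17645 in the APP/PS1 library. A cell was taken when it held at least 1000 unique molecular identifiers (UMIs, 1 for each captured RNA molecule), at most 10% mitochondrial UMIs, under 4% of UMIs from S100a8 and S100a9, at least 2 UMIs of Cd3e, Cd3g and Trac together, at least 1 UMI of Cd8a or Cd8b1, at least 2 UMIs of Ccl5 and 0 of Cd4, Cd79a and Csf1r. The cells were thus chosen by their Ccl5, Cd3, Cd8 and exclusion-gene counts, and those values are given below as description. The WT library came from 3 pooled mice, which the study's methods give as C57BL/6J, and the APP/PS1 library from 3 pooled APP/PS1 mice, a transgenic line used as a model of Alzheimer's disease. All were 7 months old, and the APP/PS1 mice are given as female. The study names no treatment agent for either group, and gives isoflurane as the anaesthetic of the APP/PS1 mice before blood was taken. Blood was treated to lyse red cells and passed through a neutrophil enrichment kit, so the T cells studied here are those that the enrichment left behind. There was 1 library for each genotype, pooled mice cannot be separated, and genotype and library cannot be told apart. No test between genotypes was therefore run. Each interval below is exact, at 95%, and covers counting error alone. It says nothing of the spread between mice. Intervals over pooled UMIs also leave out the spread between cells, and are too narrow where the UMIs of a gene lie in few cells.

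CD8 T cells recognise peptides on class I molecules of the major histocompatibility complex through a T cell receptor, with the Cd8a and Cd8b1 chains as coreceptor and the Cd3 chains as signalling partners. Naive CD8 T cells recirculate through lymph nodes, for which they use Ccr7, and they keep the transcription factors Tcf7 and Lef1. After meeting antigen they give rise to effector cells, which lose those genes, gain cytotoxic granules and enter tissues, and to memory cells, of which central memory cells keep Ccr7 and Tcf7. Ccl5 (RANTES) is a chemokine that memory CD8 T cells and NK cells hold as a ready message and release on stimulation.

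The WT library held 92458623 UMIs and the APP/PS1 library 84870864, with medians of 3345 and 3115 UMIs per cell. The Ccl5-positive CD8 T cells together held 480721 UMIs in WT and 876236 in APP/PS1, with a median of 3122.5 UMIs (1298 to 23942) and 3127 UMIs (1426 to 14576) per cell. The libraries shared 83 cell barcodes. Of these, 1 barcode belonged to a Ccl5-positive CD8 T cell in 1 of the libraries, and 0 did so in both. A level is given in CPM, which sets a gene's UMIs against the pooled UMIs of a cell group, per 1000000 UMIs. A gene with 0 UMIs was set to a floor of 3 counts over the group before a ratio was taken, and such a ratio is written as at least or at most. Differences of more than 1 log2 unit are counted, in both libraries where cell groups are compared, and the share of all measured genes that passed the same limit stands beside the first count.

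Ccl5 lies on the minus strand of chromosome 11 of mm10 from 83525778 to 83530518 (GENCODE M21). It split the CD8 T cells of both libraries into 2 sets with few cells between. The CD8 gate, which is the same rule without the limit on Ccl5, held 182 cells in WT and 280 in APP/PS1. In WT, 41 of these cells had 0 Ccl5 UMIs, 15 had 1, 2 had 2, 0 had 3 to 4 and 2 had 5 to 19, while 12 had 20 to 49, 49 had 50 to 99, 52 had at least 100 but under 200, and 9 had 200 or more. In APP/PS1, 15 cells had 0, 7 had 1, 0 had 2 to 4 and 1 had 5 to 19, while 9 had 20 to 49, 101 had 50 to 99, 120 had at least 100 but under 200, and 27 had 200 or more. The cells just inside the limit were thus 2 WT cells with 2 UMIs, and those just outside were 15 WT and 7 APP/PS1 cells with 1 UMI. The median Ccl5 count per cell was 96.5 UMIs for WT (range 2 to 343) and 110 UMIs for APP/PS1 (range 18 to 353), or 3.14% and 3.76% of a cell's UMIs. A single UMI is also the background level in this blood. Among B cells, which are not known as a source of Ccl5, 14.0% of WT cells (9.97% to 18.8%) and 19.7% of APP/PS1 cells (15.4% to 24.7%) had at least 1 Ccl5 UMI, at median depths of 4071.5 and 5301 UMIs, but only 1.16% and 2.96% had 2 or more. Neutrophils had at least 1 in 14.2% and 18.9% of cells. Ccl5-zero CD8 T cells were deeper than the Ccl5-positive ones, at medians of 4802 and 5454 UMIs.

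**Figure D1:**
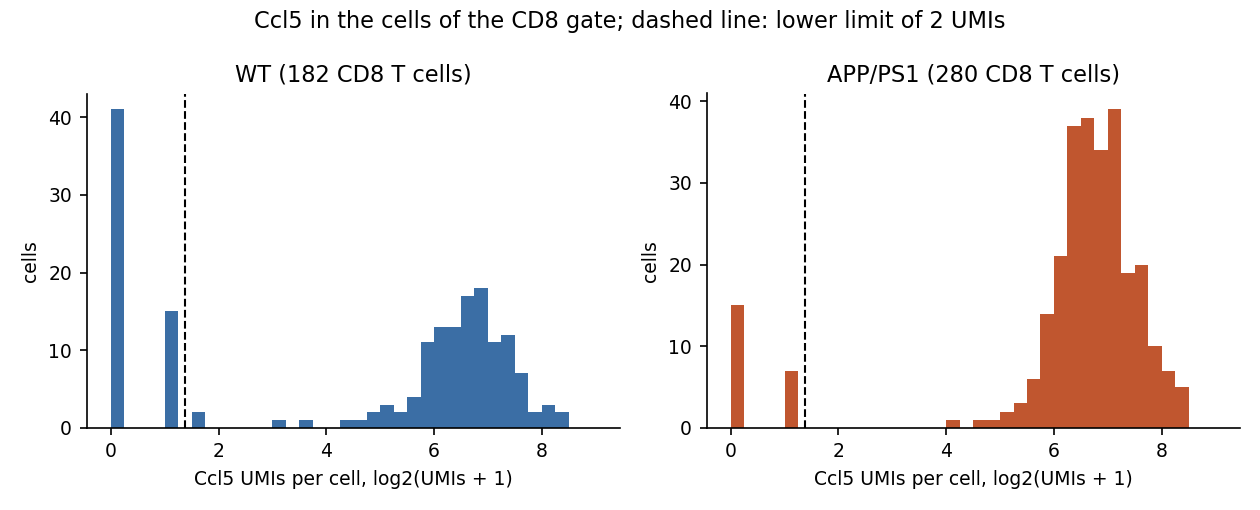
Histogram of Ccl5 UMIs per cell (log2 of UMIs plus 1, x axis) against the number of cells (y axis) for the CD8 gate of the WT library (182 cells) and the APP/PS1 library (280 cells), with the lower limit of 2 UMIs dashed. Most cells stand either at 0 or 1 UMI or at 50 UMIs and above, with 0 cells at 3 to 4 UMIs in either library.

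The T cell identity of these cells held in genes that the rule did not read. Cd3d, the delta chain of the receptor complex, was at 657 (WT) and 710 CPM (APP/PS1). Themis, a factor of T cell selection, was at 189 and 164 CPM, and Bcl11b, which maintains T cell identity, at 339 and 431 CPM. NK cells of the same libraries (at least 2 UMIs of Ncr1 and Klrb1c together, 0 of the Cd3 and Cd8 genes of the rule) held 5.68 and 7.10 CPM of Cd3d, 0.812 and 0 CPM of Themis and 11.4 CPM of Bcl11b in both. Of the genes read by the rule, Cd3e was at 472 and 519 CPM, Cd8a at 458 and 544 CPM and Cd8b1 at 797 and 1169 CPM. Markers of other cells were low but not all absent. The 6 B cell markers summed to 37.4 (WT) and 59.3 CPM (APP/PS1), led by Ighm and Igkc, with Ighd at 0 in both libraries. The gamma-delta, innate-like and CD4 T cell markers summed to 29.1 and 49.1 CPM, led by Tcrg-C2, and Foxp3 and Tcrg-C1 were at 0 in both. The 6 NK cell markers summed to 894 and 899 CPM, against 8296 and 9426 CPM in NK cells, led by Tyrobp in WT and Klre1 in APP/PS1. Ncr1 was at 31.2 and 10.3 CPM, and Klrb1c, which encodes NK1.1, at 66.6 and 19.4 CPM. A UMI of Ncr1 or Klrb1c was found in 29 of 126 WT cells and 13 of 258 APP/PS1 cells. Such cells thus made up a larger part of the WT group, and how far they bear on the ratios between libraries was not tested.

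The 8 neutrophil markers, which leave out the S100 genes of the rule, summed to 649 (WT) and 980 CPM (APP/PS1), led by Il1b, against 32198 and 32481 CPM in neutrophils. In Ccl5-zero CD8 T cells they summed to 1173 and 379 CPM, and all 6 measured markers had log2 ratios of Ccl5-positive to Ccl5-zero cells that were opposite in the libraries, with medians of -0.65 in WT and 1.45 in APP/PS1. Platelet markers summed to 268 and 256 CPM, led by Pf4, and 50 WT and 77 APP/PS1 cells had a UMI of Ppbp or Pf4. Genes of red cells stood out among the genes highest against Ccl5-zero cells (Hba-a1, Hba-a2, Hbb-bt and Hbb-bs among the 10 furthest). The 5 erythroid markers reached 37242 (WT) and 13283 CPM (APP/PS1), led by the beta globin gene Hbb-bs at 17561 and 6322 CPM. This haemoglobin RNA sat in few cells. In WT, 3 cells with over 5% haemoglobin UMIs held 17454 of the 17873 haemoglobin UMIs, and in APP/PS1 2 such cells held 11220 of 11618. The median cell had 0.0757% haemoglobin UMIs in WT and 0.0360% in APP/PS1. The globin ratios given below rest on those 5 cells. Scrublet, which scores likely doublets, called 2 of the 3 WT cells and both APP/PS1 cells, and these held 11866 and 11220 haemoglobin UMIs. Which cell types the called cells may combine was not tested.

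The label of memory-like cells was read against the fixed lists. The Ccl5-positive cells held the memory genes but were also high in genes of terminal effector cells, and they had little Cxcr3, a receptor of central memory cells (35.4 CPM in WT, 44.5 CPM in APP/PS1), so the values went partly against the label. They are called Ccl5-positive CD8 T cells here. Of 4150 genes with at least 20 UMIs over the 2 groups in each library, 442 (10.7%) were over 1 log2 unit higher in Ccl5-positive than in Ccl5-zero CD8 T cells in both libraries, and 78 (1.88%) were as far below. The median log2 ratio of all measured genes was 0.42 in WT and 0.29 in APP/PS1. Dividing by UMIs other than ribosomal, mitochondrial and rule genes moved each log2 ratio by -0.41 (WT) and -0.39 (APP/PS1), and 203 genes were then higher and 211 lower. TMM scaling moved them by -0.26 and -0.07, with 323 genes higher and 124 lower. The contrast splits the cells by the gene that chose them and rests on 41 WT and only 15 APP/PS1 Ccl5-zero cells, with 204645 and 76498 UMIs, so it describes the gate and was not tested. The Ccl5-positive cells held more UMIs, so a gene could reach the 20 UMIs needed through them alone. This limit holds for each list count of the contrast below.

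The genes of naive and recirculating cells were low in the Ccl5-positive cells. Of 12 measured genes of this list, 9 were over 1 log2 unit lower in both libraries and 0 higher, with a median log2 ratio of -2.28. The lymph node homing receptor Ccr7 was at 43.7 and 12.6 CPM against 557 and 366 CPM, with log2 ratios of -3.67 (-4.42 to -2.99) and -4.87 (-6.02 to -3.81). The transcription factor Lef1 was at 85.3 and 76.5 CPM against 596 and 641 CPM, with log2 ratios of -2.81 and -3.07. Both genes stood below their Ccl5-zero level in both libraries, with intervals that did not overlap. Tcf7 followed with log2 ratios of -1.92 and -2.17, the interleukin 7 receptor Il7r with -2.08 and -2.39, and the chromatin organiser Satb1 with -3.01 and -4.05. Klf2, which drives the receptors for recirculation, stood apart from the list at 1839 and 2074 CPM, with log2 ratios of 0.01 and -0.21. S1pr1, a receptor for leaving lymph nodes, had log2 ratios of -1.65 and -0.90. The 10 lowest genes by size also held Vps37b, Gm20186 and the lymphotoxin gene Ltb (-1.58 and -1.59), with the ribosomal protein genes Rps20 (2941 and 2373 CPM against 8801 and 8445 CPM) and Rps19 (-1.56 and -1.61).

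**Figure D2:**
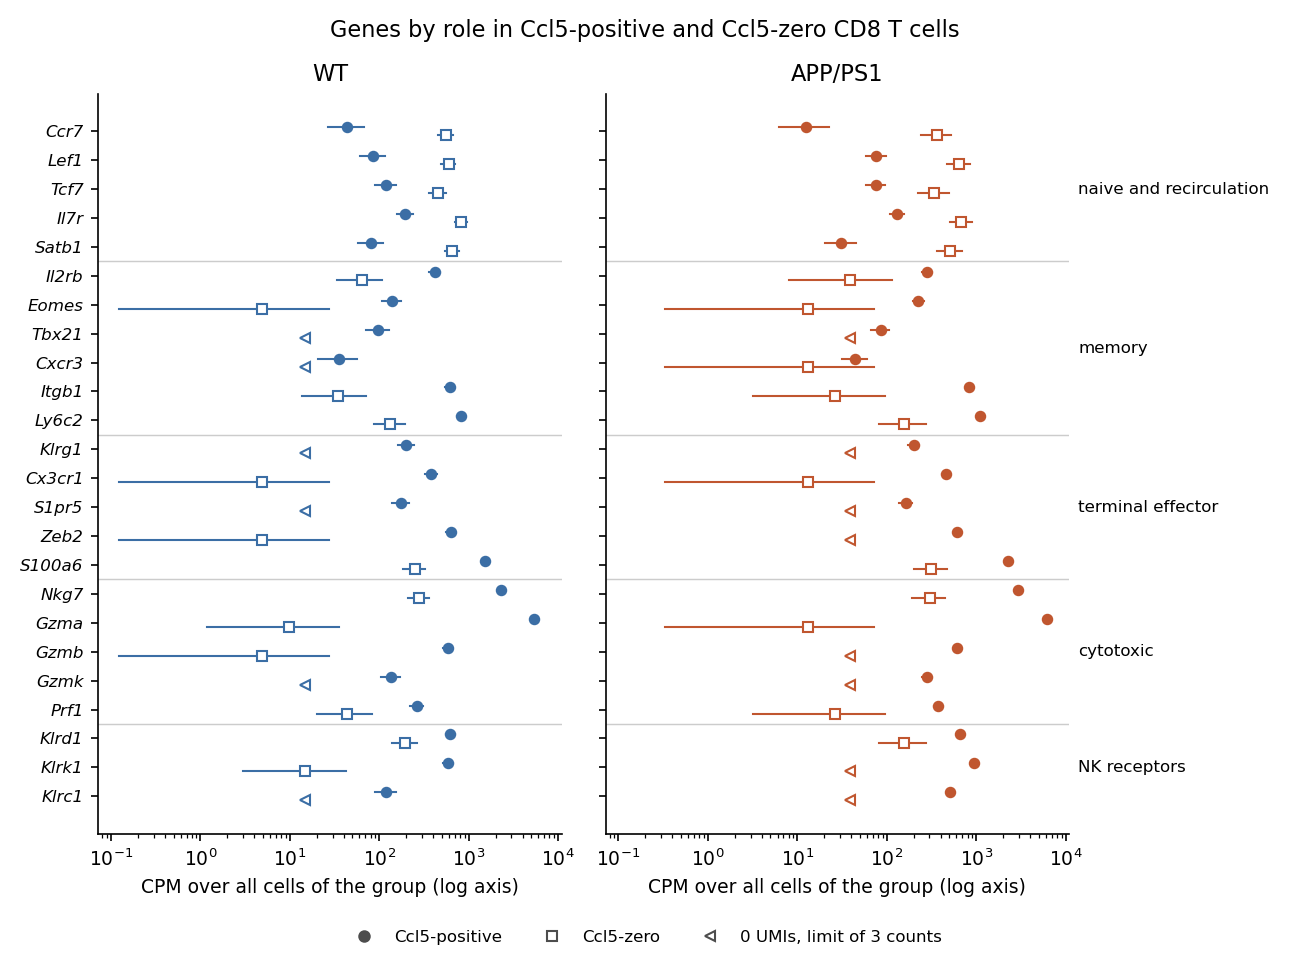
Levels of genes by role (CPM over all cells of a group, log axis) in Ccl5-positive (filled circles) and Ccl5-zero (open squares) CD8 T cells of each library. Bars are exact 95% counting intervals, and open triangles stand for genes with 0 UMIs at the limit of 3 counts. The 5 naive genes lie to the left of the Ccl5-zero level in both libraries. The measured memory, effector, cytotoxic and NK receptor genes lie to the right. Cxcr3 is drawn but had too few UMIs for the comparison.

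Memory genes stood higher. Of 15 measured genes of the memory list, 12 were over 1 log2 unit higher in both libraries (10 over non-ribosomal UMIs) and 0 lower, with a median of 2.73. The integrin Itgb1, which marks cells able to enter tissue, was at 618 (WT) and 841 CPM (APP/PS1) against 34.2 and 26.1 CPM, with log2 ratios of 4.17 (3.11 to 5.50) and 5.01 (3.15 to 8.06). The transcription factor Eomes was at 139 and 226 CPM against 4.89 and 13.1 CPM, the latter from 1 UMI in each library, with log2 ratios of 4.83 (2.31 to 10.16) and 4.11 (1.62 to 9.42). Il2rb, the receptor chain through which interleukin 15 keeps memory cells alive, was at 416 and 281 CPM against 63.5 and 39.2 CPM. Id2 had log2 ratios of 3.17 and 2.48 and Ly6c2 2.62 and 2.83. Tbx21 (T-bet) was at 97.8 and 85.6 CPM with 0 UMIs in either Ccl5-zero group, which made it at least 2.74 and at least 1.13 log2 units higher. Cd44 was at 156 and 114 CPM against 63.5 and 39.2 CPM, and its interval reached below 0 in APP/PS1 (-0.05 to 3.84). The exceptions were Bcl2, with log2 ratios of -0.56 and -0.36, Cd7, with -0.31 and 0.65, and Il18r1, with 0.72 and 0.95.

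All 11 measured genes of the terminal effector list were over 1 log2 unit higher in both libraries, with a median of 2.82, and they stayed above 0 under both other scalings. Cx3cr1, the fractalkine receptor of effector cells that patrol vessels, was at 379 (WT) and 462 CPM (APP/PS1) against 4.89 and 13.1 CPM, with log2 ratios of 6.28 (3.78 to 11.59) and 5.14 (2.66 to 10.45). Zeb2, which works with T-bet in effector differentiation, was at 628 and 613 CPM, from 1 UMI in the WT Ccl5-zero cells and 0 in APP/PS1, with log2 ratios of 7.01 (4.52 to 12.31) and at least 3.97. Klrg1, an inhibitory receptor of short-lived effectors, was at 199.7 CPM in both libraries and at 0 UMIs in both Ccl5-zero groups, so it was at least 3.77 and at least 2.35 log2 units higher. The Ccl5-zero cells thus held at most 1 UMI of each of these 3 genes per library. S1pr5, an egress receptor shared with NK cells, was at least 3.58 and at least 2.07 log2 units higher. The calcium-binding S100a6 was at 1541 and 2287 CPM against 249 and 314 CPM. Lgals1 had log2 ratios of 4.73 and 2.12, and S100a4 was at 1094 and 770.3 CPM against 34.2 and 288 CPM, so the size differed between libraries for these 2 genes. With each cell thinned to 1000 UMIs before the gate, which left 7 and 5 Ccl5-zero cells, the log2 ratio of S100a4 was -0.57 in WT and -0.66 in APP/PS1.

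Cytotoxic granule genes were also higher. Of 11 measured genes, 7 were over 1 log2 unit higher in both libraries (6 under either other scaling) and 0 lower, with a median of 2.65. Gzma, the gene of the serine protease granzyme A, had the highest ratio of any gene named by size. It was at 5361 (WT) and 6184 CPM (APP/PS1) against 9.77 and 13.1 CPM, which came from 2 and 1 UMIs, with log2 ratios of 9.10 (7.25 to 12.15) and 8.89 (6.41 to 14.19). At least 1 Gzma UMI was found in 68.3% and 77.9% of the Ccl5-positive cells, against 5.04% and 5.59% of B cells. Nkg7, a granule membrane protein needed for degranulation, was found in 99.2% and 99.6% of cells, against 1.94% and 2.63% of B cells. Its level was 2326 and 2934 CPM against 279 and 301 CPM, with log2 ratios of 3.06 (2.68 to 3.47) and 3.29 (2.70 to 3.95). Nkg7 was therefore nearly universal and present at a low level in Ccl5-zero cells, while Gzma was not detected in a part of the Ccl5-positive cells. Gzmb was at 580 and 613 CPM, with log2 ratios of 6.89 and at least 3.97. Perforin (Prf1), which opens the target membrane for granzymes, was at 262 and 379 CPM against 44.0 and 26.1 CPM. Gzmk, a granzyme of memory cells, was at 135 and 284 CPM with 0 UMIs in both Ccl5-zero groups.

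Receptors best known from NK cells were shared by these cells. Of 9 measured genes of the NK receptor list, 8 were over 1 log2 unit higher in both libraries and 0 lower, with a median of 2.53. Klrk1, which encodes the activating receptor NKG2D, was at 587 (WT) and 940 CPM (APP/PS1), against 14.7 CPM from 3 UMIs and 0, with log2 ratios of 5.32 (3.76 to 7.61) and at least 4.58. Klrd1 (CD94), the partner chain of the Klrc receptors, was at 622 and 668 CPM against 195 and 157 CPM. Klre1 was at 225 and 380 CPM with 0 UMIs in both Ccl5-zero groups.

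Gzma, Nkg7 and Klrk1 were taken as examples of the cytotoxic and receptor genes, and Nkg7 was not among the 10 highest against Ccl5-zero cells. The RefSeq promoters of these 3 genes (GRCm38.p6, 250 bases before and 50 after the start of transcription) are shown in the direction of the gene. Capitals mark the letters AGGTGTGA, as bound by T-box factors such as T-bet and Eomes, and TGTGGT or its reverse complement ACCACA, as bound by RUNX factors. Both strands were searched, and no match overlaps another. The Nkg7 window lies at chr7:43436888-43437187 on the plus strand, the Gzma window at chr13:113100932-113101231 and the Klrk1 window at chr6:129623815-129624114, both on the minus strand.
Nkg7: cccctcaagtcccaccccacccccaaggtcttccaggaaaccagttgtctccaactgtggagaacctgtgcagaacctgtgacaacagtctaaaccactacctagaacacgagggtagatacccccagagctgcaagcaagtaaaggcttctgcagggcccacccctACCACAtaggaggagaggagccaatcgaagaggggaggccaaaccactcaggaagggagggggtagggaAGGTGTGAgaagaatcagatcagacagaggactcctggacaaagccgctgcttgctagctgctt
Gzma: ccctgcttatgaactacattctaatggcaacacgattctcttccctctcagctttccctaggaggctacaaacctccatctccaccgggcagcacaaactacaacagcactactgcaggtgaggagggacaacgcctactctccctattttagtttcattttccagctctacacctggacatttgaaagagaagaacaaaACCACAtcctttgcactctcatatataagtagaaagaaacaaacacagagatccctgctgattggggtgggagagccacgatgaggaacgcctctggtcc
Klrk1: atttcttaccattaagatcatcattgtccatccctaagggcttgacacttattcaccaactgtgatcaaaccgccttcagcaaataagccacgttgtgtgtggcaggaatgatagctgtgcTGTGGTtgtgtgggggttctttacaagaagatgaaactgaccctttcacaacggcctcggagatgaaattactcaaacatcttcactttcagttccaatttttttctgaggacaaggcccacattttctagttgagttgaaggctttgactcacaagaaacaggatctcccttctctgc
In Nkg7 the T-box letters begin 14 bases and the RUNX letters 83 bases before the start. In Gzma and Klrk1 the RUNX letters begin 50 and 129 bases before it. Of 32851 RefSeq promoter windows of this length, 1.27% held the T-box letters and 16.8% the RUNX letters. Of the 10 genes highest against Ccl5-zero cells, 0 held the T-box letters and 3 the RUNX letters (Gzma, Cx3cr1 and Klrk1). A match describes these letters and is not evidence of binding.

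Chemokines and their receptors differed in part. Of 5 measured chemokine and cytokine genes besides Ccl5, 3 were over 1 log2 unit higher and 1 lower (Ltb). Ccl4 was at 258 (WT) and 439 CPM (APP/PS1) from 1 and 0 UMIs in Ccl5-zero cells. Interferon gamma (Ifng) was at 85.3 and 135 CPM and the death receptor ligand Fasl at 231 and 218 CPM, both with 0 UMIs in both Ccl5-zero groups. In the 2 groups compared, the UMIs of these 3 genes lay almost only in the Ccl5-positive cells. Those cells held 480721 (WT) and 876236 UMIs (APP/PS1) in all, against 204645 and 76498 in the Ccl5-zero cells. The 3 genes thus had enough UMIs for the comparison through the Ccl5-positive cells alone, and their absence from Ccl5-zero cells was not tested. Of 8 measured chemokine and sphingosine phosphate receptors, 4 were higher and 1 lower (3 and 2 over non-ribosomal UMIs). Ccr2 was at 83.2 and 236 CPM against 4.89 and 105 CPM.

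For genes of the receptor complex and of recent stimulation, the counts are read beside the 10.7% of all genes that were higher and the 1.88% that were lower. Of 15 measured T cell receptor signalling genes, 0 passed the limit in either direction, with a median of 0.54. Of 11 immediate early genes, 0 were higher and 1 (Jun) was lower, at 129 and 177 CPM against 362 and 784 CPM. Of 10 measured interferon response genes, 1 was higher (Zbp1, at 1.40 and 1.10) and 0 lower, and Irf7 had log2 ratios of 1.43 and 0.97. Of 3 measured activation and exhaustion genes, 1 (Tox) was higher, with log2 ratios of 2.63 and 1.01. Tox did not pass the limit in APP/PS1 with TMM scaling (0.94) or over non-ribosomal UMIs (0.62), and Zbp1 did not over non-ribosomal UMIs (0.99 and 0.71), where 2 interferon response genes were lower. Pdcd1 was at 22.9 and 6.85 CPM, Lag3 at 18.7 and 17.1 CPM and Havcr2 at 18.7 and 13.7 CPM, too few UMIs for the comparison.

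The genes most like Ccl5 from cell to cell were ranked over the whole CD8 gate. With each of the 182 WT and 280 APP/PS1 cells of the CD8 gate thinned to 1000 UMIs, the 5 genes most like Ccl5 by Spearman correlation among 1112 genes were Gzma (0.48 in WT, 0.42 in APP/PS1), Nkg7 (0.67 and 0.35), Cd52 (0.43 and 0.26), S100a6 (0.33 and 0.26) and Emp3 (0.38 and 0.26). The cells share a library and include the Ccl5-zero cells, so this ranking describes the same split as the ratios above. Within the Ccl5-positive cells, ranked by the share of UMIs that Ccl5 took and divided into 3 equal groups, the libraries differed. In APP/PS1 Gzma was at 3620.1 CPM in the lowest group, 7029.9 in the middle and 8424 in the highest, 86 cells each. In WT, with 42 cells each, it was at 4700.2 CPM, 6369 CPM and 5554 CPM and had no such order. The lowest WT group was also the deepest, at a median of 4491 UMIs per cell. Cx3cr1 was at 297, 414 and 491 CPM in WT and at 354, 470 and 582 CPM in APP/PS1, in the order of the Ccl5 share in both, though the intervals of neighbouring groups overlapped.

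NK cells of the same libraries also held much Ccl5, at a median of 98 UMIs per cell in 323 WT cells and 83.5 in 600 APP/PS1 cells. The log2 ratio of Ccl5 in CD8 T cells to NK cells was -0.07 in WT and 0.42 in APP/PS1. Of 7160 genes with at least 20 UMIs over the 2 groups in each library, 166 (2.32%) were over 1 log2 unit higher in Ccl5-positive CD8 T cells in both libraries and 318 (4.44%) lower, and the median of all ratios was -0.09 in WT and -0.04 in APP/PS1. NK cells held more UMIs, at 1232139 in WT and 2112353 in APP/PS1, so a gene could reach the 20 UMIs needed through them alone. This limit holds for each list count against NK cells below. The Cd3, Cd8, Ncr1 and Klrb1c values chose the 2 groups and count as description. This comparison was added after the Ccl5-zero comparison had been seen.

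The T cell side was led by receptor and T cell identity genes, with 7 of 14 measured T cell receptor signalling genes higher and 0 lower. Cd3d had log2 ratios of 6.85 and 6.64, Themis 7.87 and at least 6.85, and Bcl11b 4.90 and 5.25. Among the 10 furthest genes were also 2 of the recirculation list. S1pr1 was at 129 (WT) and 203 CPM (APP/PS1) against 7.30 and 11.4 CPM in NK cells, and Il7r at 194 and 130 CPM against 13.0 and 10.9 CPM. Gzmk was the granzyme that set the T cells apart. It was at 135 and 284 CPM against 2.43 and 0.947 CPM in NK cells, with log2 ratios of 5.80 (4.18 to 8.11) and 8.23 (6.36 to 11.28). The other 4 of the 10 genes were BE692007, Gm8369, Klk8 and Gramd3, with log2 ratios from 4.15 to 5.30.

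Cytotoxic granule genes differed from NK cells in both directions. Of 12 measured genes, 4 were lower in Ccl5-positive CD8 T cells than in NK cells, 2 were higher and 6 were neither, with a median log2 ratio of -0.64. Gzma was at 16962 (WT) and 16989 CPM (APP/PS1) NK cells, with log2 ratios of -1.66 and -1.46. Prf1 had log2 ratios of -2.74 and -2.25, and Serpinb9, which protects the killer from its own granzyme B, -2.68 and -2.85. Gzmb was at -1.39 and -0.99, so it did not pass the limit in APP/PS1. Of 16 NK receptor genes, 9 were lower and 0 higher, with Klra8, Klra4 and Klrb1a among the 10 furthest genes. All 6 NK cell markers were lower, though Ncr1 (log2 ratios of -4.62 and -6.36) and Klrb1c chose the NK cells. Of the others, the adaptor Tyrobp had log2 ratios of -3.22 and -3.37. The transcription factor Irf8 was at 66.6 and 18.3 CPM against 1584 and 1269 CPM, and Dab2ip, Spp1, Cma1, Phactr3 and Cdk14 made up the rest of the 10 lowest genes. The chemokine Ccl4 was lower, with log2 ratios of -2.89 and -2.32, and so was Ccl3, with -4.52 and -3.56. Of 12 measured terminal effector genes, 1 was higher (S100a4, 2.01 and 1.59) and 1 lower (Anxa2, -1.39 and -1.18). Klrg1, S1pr5 and Zeb2 had log2 ratios between -0.68 and -0.07.

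**Figure D3:**
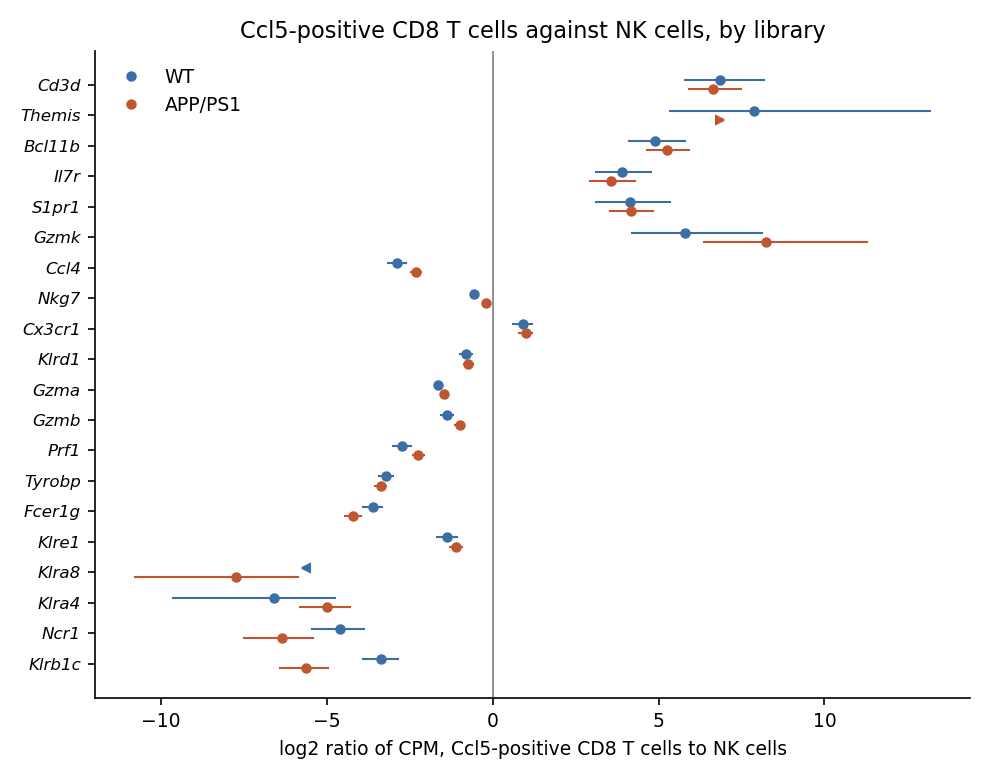
Log2 ratio of CPM in Ccl5-positive CD8 T cells to NK cells (x axis) for 20 genes (y axis) in WT and APP/PS1, with exact 95% counting intervals as bars and triangles for bounds where a group had 0 UMIs. Cd3d, Themis, Bcl11b, Il7r, S1pr1 and Gzmk lie to the right in both libraries, Ncr1, Klrb1c, Fcer1g, Tyrobp and the Klra genes to the left, and Nkg7 and Cx3cr1 lie within 1 log2 unit of 0 in both.

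The Ccl5-positive CD8 T cells were themselves not uniform. Cx3cr1 was found in 64.3% of WT and 70.2% of APP/PS1 cells, against 3.49% and 1.64% of B cells. Cells with Cx3cr1 held 6158 CPM of Gzma in WT and 7098 CPM in APP/PS1, against 3664 and 3963 CPM without it. Gzmk was found in 29.4% (37 cells) and 49.2% (127 cells), against 0 of 258 and 0 of 304 B cells. Taking 3 cells of the total as the floor, a count of 0 allows a share of B cells with a Gzmk UMI of up to 1.16% and 0.987%. In WT, cells with Gzmk held 2985 CPM of Gzma against 6412 CPM without it. In APP/PS1 the order was the other way, at 6716 CPM against 5597 CPM. Cells with a Maf UMI, described below, were 20 of the 37 WT cells with Gzmk and 7 of the 127 in APP/PS1. How far this overlap bears on the 2 orders was not tested.

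Maf, a transcription factor on the minus strand of chromosome 8 from 115682942 to 115707794, marked a small set of cells in WT. It was found in 26 WT cells and 13 APP/PS1 cells. In WT, cells with Maf held 145 CPM of Gzma (84.7 to 233) against 7036 CPM (6766 to 7313) without it, and 7 of 26 against 79 of 100 cells had a Gzma UMI. They also held 17.1 CPM of Klrg1 against 258 CPM, and 205 CPM of Zeb2 against 764 CPM. Klrg1 and Zeb2 of the effector list were thus low in these cells. S100a4 and S100a6 of the same list were higher, at 2567 against 621 CPM and 2704 against 1168 CPM, with 148 of the 316 S100a6 UMIs in 1 cell, without which S100a6 was at 1772 CPM. Ccl5 was at 33435 against 26798 CPM. Higher in them were the costimulatory receptor Cd28 (642 against 140 CPM), Il2rb (856 against 275 CPM), Gzmk (394 against 52.2 CPM) and Arap2 (1190 against 190 CPM). Trbc1 was found in 25 of the 26 cells, at 2687 against 756 CPM. In APP/PS1 the 13 cells with Maf held 3660 CPM of Gzma against 6348 CPM, and 4 of 13 had a Gzma UMI. One cell of 6880 UMIs held 149 of the 195 Gzma UMIs, and without it the level was 992 CPM. Il2rb was not higher in these 13 cells, at 263 against 282 CPM. Gzmk stood at 300 against 283 CPM, or 230 CPM without its top cell. Cd28 (282 against 175 CPM) and Arap2 (244 against 115 CPM) were higher, but from only 15 and 13 UMIs in the cells with Maf. Without the top cell of each gene they were at 230 and 181 CPM, and these differences were not tested. The comparison within the Ccl5-positive cells was chosen after the values between libraries had been seen.

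The share of Ccl5-positive cells was higher in the APP/PS1 library. They were 69.2% of the WT CD8 gate (62.0% to 75.8%, 126 of 182) and 92.1% of the APP/PS1 gate (88.3% to 95.01%, 258 of 280). The WT share depended on depth and quality limits. After every cell was thinned to 1000 UMIs before the gate, the shares were 87.7% (77.2% to 94.5%, 57 of 65) and 94.5% (89.0% to 97.8%, 120 of 127), with intervals that overlap. With a mitochondrial limit of 5% the WT share was 76.9%. Of all cells that passed the filters on UMIs and mitochondrial RNA, Ccl5-positive CD8 T cells were 0.774% of 16281 for WT (0.645% to 0.921%) and 1.54% of 16725 for APP/PS1 (1.36% to 1.74%), or 0.350% and 0.718% after thinning. Of the other cells left by the enrichment, NK cells were 1.98% and 3.59% and Ccl5-zero CD8 T cells 0.252% and 0.0897%, with intervals that did not overlap. After thinning, Ccl5-zero CD8 T cells were 0.0430% (0.0173% to 0.0886%) and 0.0299% (0.00971% to 0.0698%), from 7 and 5 cells, and these intervals overlapped. T cells with neither Cd4 nor Cd8 UMIs were 0.719% and 0.825%, and B cells 1.58% and 1.82%, with intervals that overlapped. How far the enrichment set these shares was not tested.

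Few genes passed the limit between the libraries. Of 3737 genes with at least 50 UMIs over both libraries, 64 (1.71%) were over 1 log2 unit higher in APP/PS1 and 50 (1.34%) lower, with a median log2 ratio of 0.03, and other scalings moved every ratio by at most 0.02. The APP/PS1 cells held more UMIs (876236 against 480721), so a gene could reach the 50 UMIs needed through that library alone. This limit holds for each list count between the libraries. Of the terminal effector list 0 of 12 genes passed the limit in either direction. Gzma, Nkg7, Cx3cr1, Klrg1 and Zeb2 had log2 ratios of 0.21, 0.34, 0.29, 0.00 and -0.04. Of 16 memory genes, 2 were higher and 0 lower. These were Il18r1 and Ly6a, of which the second was at 0.86 (-0.02 to 1.83) without cells over 10000 UMIs. Of 9 naive genes 1 was lower (Satb1, -1.40), and of 14 T cell receptor signalling genes 1 was lower (Trbc1). Of 12 cytotoxic genes, Gzmk was higher at 1.07 (0.67 to 1.49) and Serpinb6b lower at -1.30 (-1.90 to -0.70). Of 9 chemokine receptor genes, Ccr2 was higher at 1.51 (1.01 to 2.03) and Cxcr6 at 1.06 (0.25 to 1.96), and of 6 chemokine genes Ccl3 was higher at 1.40 from 10 and 48 UMIs. The 5 erythroid genes were lower, Hbb-bs at -1.47 and Hbb-bt at -1.67, with nearly all of their UMIs in the 5 cells named above. Among markers of other cells, Csf3r of the neutrophil list was higher at 1.20 and Ctss of the monocyte list at 1.05. Of the alternatives that gave a value, Gzmk passed the limit in 12 of 16 (lowest 0.79), Cxcr6 in 9 of 15 (0.73), Csf3r in 13 of 16 (0.63), Ctss in 7 of 16 (0.51) and Ly6a in 12 of 15 (0.42).

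The NK receptor list differed both ways, with 2 of 10 measured genes higher and 2 lower. Klrc1, which encodes the inhibitory receptor NKG2A, was the furthest above. It lies on the minus strand of chromosome 6 from 129666015 to 129678973. It had 57 UMIs in WT and 452 in APP/PS1, or 119 CPM (89.8 to 154) and 516 CPM (469 to 566), a log2 ratio of 2.12 (1.72 to 2.54). It was found in 28 of 126 WT cells (22.2%) and 170 of 258 APP/PS1 cells (65.9%), against 0% and 0.329% of B cells. No cell held more than 8 of the APP/PS1 UMIs, and over 17 alternatives the ratio ran from 1.63 to 2.20. In NK cells the log2 ratio was 0.46. Klrc2, its activating neighbour, had 28 and 200 UMIs and a log2 ratio of 1.97 (1.40 to 2.60). The Klrc genes are similar in sequence, and how their reads were shared between them was not tested. Klra3, an inhibitory Ly49 receptor, was lower at -2.69 (-3.56 to -1.89), from 60 and 17 UMIs, and Cd160 at -1.12 (-1.93 to -0.32). In APP/PS1, the cells with Klrc1 held 7541 CPM of Gzma and 1128 CPM of Klrk1 against 3658 and 591 CPM in the 88 cells without it. In WT the 28 cells with Klrc1 held 5776 CPM of Gzma against 5229 CPM, but 1 cell of 23942 UMIs held 261 of their 669 Gzma UMIs, and without it they held 4441 CPM, below the others.

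Most of the other genes furthest above in APP/PS1 came from 1 cell. Cstdc5 had 0 UMIs in WT and 163 in APP/PS1, and all 163 lay in 1 cell of 14576 UMIs. The same cell held all 118 UMIs of Mal, 145 of 150 of Asprv1, 261 of 278 of Gsto1, 191 of 243 of Ly6a and 101 of 129 of Ifit1bl1. A second cell, of 12405 UMIs, held 116 of 128 UMIs of Cd74. Without cells over 10000 UMIs the log2 ratio was -0.94 for Asprv1, -0.03 for Gsto1, 0.86 for Ly6a, -0.23 for Ifit1bl1 and -1.06 for Cd74, while Klrc1 stood at 2.07 (1.67 to 2.51). Most UMIs of these 7 genes in APP/PS1 thus lay in 2 of the 258 cells.

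**Figure D4:**
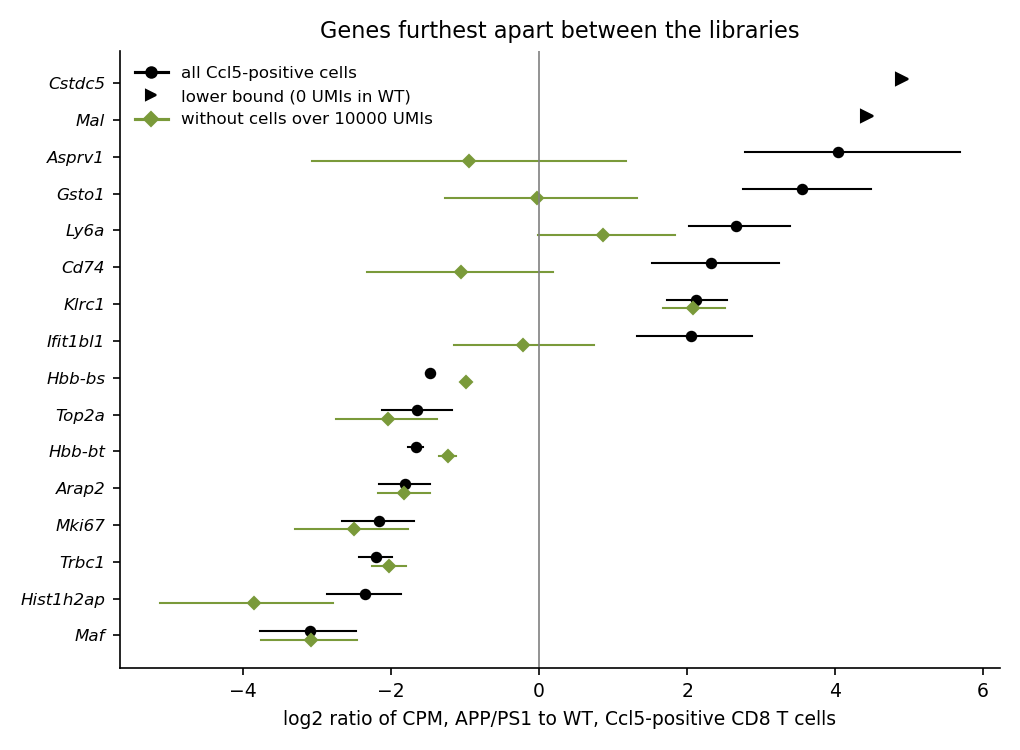
Log2 ratio of CPM, APP/PS1 to WT, within Ccl5-positive CD8 T cells (x axis) for the 8 genes furthest above and the 8 furthest below (y axis), over all cells (black circles; triangles for lower bounds) and without cells over 10000 UMIs (green diamonds), with exact 95% counting intervals. Klrc1, Maf, Trbc1 and Arap2 keep their place without the largest cells, and Asprv1, Gsto1, Cd74 and Ifit1bl1 move to 0 or below.

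Below in APP/PS1 stood Maf, Arap2 and genes of cell division, beside Trbc1 and the globin genes. Maf itself had 122 and 26 UMIs, or 254 CPM (211 to 303) and 29.7 CPM (19.4 to 43.5), a log2 ratio of -3.10 (-3.77 to -2.48). Arap2, a regulator of small GTPases, had 208 and 108 UMIs, or 433 and 123 CPM, a log2 ratio of -1.81 (-2.16 to -1.47). Over 16 alternatives these ratios ran from -3.70 to -2.90 and from -2.02 to -1.66. Of 5 measured cell cycle genes 4 were lower, with Mki67 at -2.17 and Top2a at -1.65, and the histone gene Hist1h2ap, outside that list, at -2.36. Their UMIs lay in few cells. Without cells over 5% haemoglobin or with 10 cell cycle UMIs, the ratios of Mki67, Top2a and Hist1h2ap turned to 0.85, 0.33 and 0.85, from too few UMIs for the comparison. Cells with at least 10 UMIs of the 10 cell cycle genes numbered 8 of 126 of WT (6.35%, 2.78% to 12.1%) and 1 of 258 of APP/PS1 (0.388%, 0.00981% to 2.14%), and held 478 of 530 and 142 of 315 of these UMIs. The 8 WT cells were deeper than the others, at a median of 6109 against 3023 UMIs. The 2 largest WT cells, of 23942 and 22071 UMIs, held 181 and 60 UMIs of the list, and the APP/PS1 cell, of 12407 UMIs, held 142.

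A constant region gene of the T cell receptor beta chain was the 1 gene of the receptor signalling list past the limit between libraries. A beta chain uses either Trbc1 (chr6:41538218-41539881, plus strand) or Trbc2 (chr6:41546730-41548352, plus strand), which are close copies of each other, so reads may have been assigned uncertainly between them. Trbc1 had 589 UMIs in WT and 233 in APP/PS1, or 1225 CPM (1128 to 1328) and 266 CPM (233 to 302), a log2 ratio of -2.20 (-2.43 to -1.98). Trbc2 had 522 and 853 UMIs, with a log2 ratio of -0.16 (-0.32 to 0.00). Trbc1 thus took 53.0% of the UMIs of both genes of the WT library (50.03% to 55.98%) and 21.5% in APP/PS1 (19.05% to 24.02%). In other cells the shares were 40.4% and 29.0% (Ccl5-zero CD8 T cells), 34.1% and 29.4% (T cells with neither coreceptor) and 62.5% and 62.1% (NK cells), and the difference between cell types was not tested. A Trbc1 UMI was found in 97 of 126 WT cells (77.0%) and 56 of 258 APP/PS1 cells (21.7%), while the shares were 65.9% and 40% of the 41 and 15 Ccl5-zero cells, 54.7% and 65.9% of T cells with neither coreceptor, and 60.4% and 48.2% of NK cells. UMIs of both genes were found in 86 of 126 WT cells (68.3%) and 50 of 258 APP/PS1 cells (19.4%). One WT cell held 86 of the 589 Trbc1 UMIs, and without cells over 10000 UMIs the Trbc1 ratio was -2.03 (-2.26 to -1.80).

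**Figure D5:**
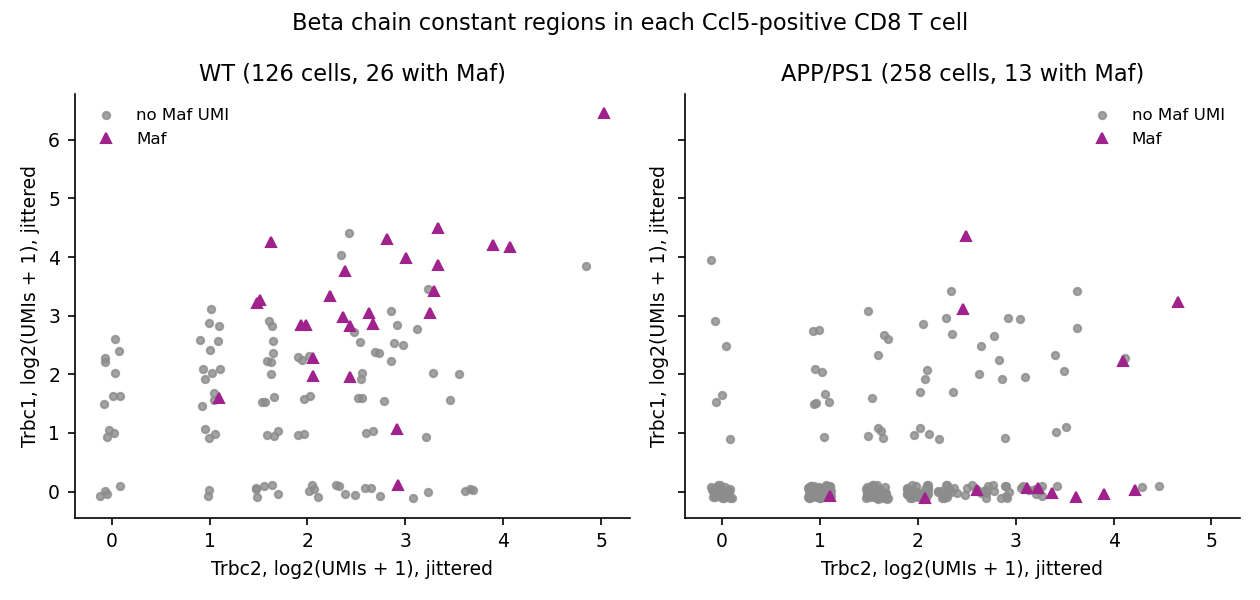
Trbc1 against Trbc2 UMIs (both as log2 of UMIs plus 1, jittered) in each Ccl5-positive CD8 T cell of WT (126 cells) and APP/PS1 (258 cells), with cells that hold a Maf UMI as triangles (26 and 13). In WT 97 cells lie above 0 on the Trbc1 axis and 25 of the 26 cells with Maf are among them, whereas in APP/PS1 202 cells lie at 0.

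In APP/PS1 the cells without Trbc1 held most of the Klrc1 UMIs. The 202 cells without Trbc1 held 618 CPM of Klrc1 and 7320 CPM of Gzma, against 180 and 2468 CPM in the 56 cells with it. In WT the 29 cells without Trbc1 held 139 CPM of Klrc1 and 6334 CPM of Gzma, against 113 and 5078 CPM in the 97 cells with it, and the intervals for Klrc1 overlapped. Of the 163 variable genes in the files, 23 UMIs in 20 WT cells and 26 UMIs in 24 APP/PS1 cells were counted, at most 3 and 4 cells for 1 gene, against 1111 and 1086 UMIs of Trbc1 and Trbc2 in the same cells. These were too few to read the clonal makeup. Genotype, pooled mice and clones cannot be told apart in these values.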

How the data were processed

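Blood cells of the WT and the APP/PS1 pool were profiled with 10x 3′ v3 chemistry, and the deposited matrices hold UMI counts per gene and cell that the authors made with Cell Ranger 5.0.0 on mm10, as the submitters' processing notes name them. Counts were used as deposited, over 32285 genes. The cells, the 21 gene lists (213 distinct genes) and the comparisons were chosen with earlier results of these data known. The comparison with NK cells and the splits by Maf, Klrc1, Trbc1, Cx3cr1 and Gzmk were added after values had been seen. UMIs were summed over the cells of a group and library. With 1 library per genotype no test was run. Levels carry exact Poisson intervals, shares Clopper-Pearson intervals and log2 ratios exact conditional binomial intervals (scipy 1.17.1 in Python 3.11.15), all at 95%. A gene was compared with at least 20 UMIs over both cell groups in each library, or at least 50 over both libraries of Ccl5-positive cells.

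NK cells held at least 2 UMIs of Ncr1 and Klrb1c and 0 of Cd3e, Cd3g, Trac, Cd8a, Cd8b1, Cd79a and Csf1r. B cells held at least 2 UMIs of Cd79a, Cd79b and Ms4a1, and neutrophils at least 4% S100a8 and S100a9, both without Cd3 genes. CD4 T cells were too few to compare. Named by size were the 10 highest and 10 lowest genes against Ccl5-zero cells and against NK cells (by the smaller of both libraries' ratios, at least 50 UMIs), the 8 highest and 8 lowest between libraries (at least 100 UMIs) and the 5 genes most like Ccl5. Other genes come from the lists. Doublets were scored with Scrublet in scanpy 1.11.5 and kept: the WT threshold served both libraries, since the automatic threshold called 0 cells in APP/PS1, and 4 WT and 5 APP/PS1 Ccl5-positive cells were called. TMM scaling used edgeR 4.0.16 in R 4.3.3. The ratio comparisons were run on simulated data, drawn as independent Poisson counts of pooled totals. The intervals assume the same model, so the simulation could not test genes whose UMIs lie in few cells. In the simulated data, unchanged genes passed 1 log2 unit most often in the comparison with Ccl5-zero cells in APP/PS1. Positions are from GENCODE M21 and promoter sequences from RefSeq (GRCm38.p6). There were 17 alternatives, of which 1 was added after seeing the data. Some items are not reported here.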

Additional observations from a re-analysis of the deposited data

Results flagged for a closer look

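Retnlg and Hdc, a neutrophil and a granulocyte gene, and Maf had log2 ratios of Ccl5-positive to Ccl5-zero CD8 T cells that were opposite in the 2 libraries, and the differences were not tested. Hdc stood at -1.38 in WT and 1.80 in APP/PS1, and Retnlg at -1.10 and 1.57. The other 4 measured neutrophil markers were opposite too, by less than 1 log2 unit in at least 1 library. Both oppositions ended under an alternative, each from too few UMIs to be read, with Hdc at 0.42 in WT without cells with Ppbp, Pf4, Cd79b or Ms4a1 and Retnlg at -1 in APP/PS1 after thinning. In the 41 WT Ccl5-zero cells, 1 cell held 11 of 20 Hdc UMIs and 1 held 28 of 61 Retnlg UMIs. Maf was at least 4.11 log2 units higher in WT, where Ccl5-zero cells had 0 UMIs, and at -1.62 in APP/PS1. The Ccl5-zero group of APP/PS1 held 15 cells, with all of its 7 Maf UMIs and its 1 Hdc UMI in 1 cell each, and 5 Retnlg UMIs in 4 cells.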

How the results depend on the processing

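The log2 ratios to Ccl5-zero cells and between libraries were recomputed under 17 alternatives, and only values with enough UMIs were read. The ratios to NK cells, the splits within Ccl5-positive cells and the ranking by likeness to Ccl5 are not among the values counted here. Of 4518 such values for 286 log2 ratios to Ccl5-zero cells, 4223 kept their place within the counting interval, 281 moved and 14 reversed. Of 2288 values for 147 ratios between libraries, 2150 kept it, 138 moved and 0 reversed. Values with too few UMIs to be counted there numbered 344 and 211, of which 18 and 20 had the opposite sign to a ratio over 1 log2 unit, among the 20 Asprv1, Gsto1, Ifit1bl1 and Cd74 without cells over 10000 UMIs and Mki67, Top2a and Hist1h2ap without cycling cells. The WT share of the CD8 gate was 76.9% with a mitochondrial limit of 5%, 77.5% with a limit of 1 Ccl5 UMI and 87.7% after thinning to 1000 UMIs. Genes higher in APP/PS1 numbered 64, and 42 with S100a8 and S100a9 below 1%, 42 without cells with Ppbp, Pf4, Cd79b or Ms4a1, 8 after thinning, 903 with no minimum and 20 with at least 100 UMIs. Genes lower in APP/PS1 numbered 50, and 16 without cells with Ppbp, Pf4, Cd79b or Ms4a1, 31 without cells with over 5% haemoglobin or 10 cell cycle UMIs (an alternative chosen after seeing the data), 3 after thinning, 950 with no minimum and 16 with at least 100 UMIs. Against Ccl5-zero cells, 442 genes were higher, and 32 after thinning, 203 over non-ribosomal UMIs and 110 with at least 100 UMIs. There 78 were lower, and 23 after thinning, 124 with TMM, 211 over non-ribosomal UMIs, 357 with no minimum and 33 with at least 100 UMIs. In APP/PS1 the ratio of Ifit1bl1 to Ccl5-zero cells reversed to -0.22 with S100a8 and S100a9 below 1%, -0.52 with 2 Cd8 UMIs, -0.23 without cells over 10000 UMIs and -0.72 without cells with Ppbp, Pf4, Cd79b or Ms4a1. Hbb-bs reversed there to -0.28 without doublets, -0.31 without haemoglobin and cycling cells and -1.78 after thinning, and Hbb-bt in WT to -0.0060 without haemoglobin and cycling cells. After thinning, with 7 and 5 Ccl5-zero cells left, APP/PS1 ratios reversed to -0.19 for Cd28, -0.68 for Fos, -0.061 for Hba-a1, -0.19 for Il1b and -0.66 for S100a4, and the WT ratio of S100a4 to -0.57. Leaving out a replicate could not be done with 1 library per genotype. No paired analysis was possible because each genotype has 1 library.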
